A study of Sus scrofa with 37 samples.

Results

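Oxidative phosphorylation is carried out in the inner mitochondrial membrane by the respiratory chain and ATP synthase. Complexes I and II pass electrons to ubiquinone, complex III passes them on to cytochrome c, and complex IV hands them to oxygen. Complexes I, III and IV pump protons, and complex V (ATP synthase) uses the resulting gradient to make ATP. A small number of subunits is encoded in mitochondrial DNA, and all others are encoded in the nucleus. The nuclear subunits that could be matched to a row by name are described here. In beta cells of the islet, the ATP made in this way closes potassium channels and so triggers insulin release. In acinar cells, which make digestive enzymes, it powers protein synthesis and secretion.

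The genes were chosen by name. Every row of the count tables whose pig gene identifier maps to a symbol of complex I (NDUFA, NDUFB, NDUFC, NDUFS, NDUFV), complex II (SDHA to SDHD), complex III (UQCR), complex IV (COX4I, COX5, COX6, COX7, COX8) or complex V (ATP5F1, ATP5M, ATP5P) was taken. This gave 70 of 25880 rows, of which 14857 had a symbol. They were 28 subunits of complex I, 4 of complex II, 6 of complex III, 13 of complex IV and 10 of complex V, together with 7 assembly factors of complex I, whose symbols begin with NDUFAF. The set is not complete: COX6B1, COX6C and ATP5MC2, for instance, matched no row, and CYC1 of complex III lies outside the rule. Sums, shares and counts by complex therefore cover only the genes found. NDUFA4 and its paralog NDUFA4L2 were kept as a separate family of 2, because NDUFA4 carries a complex I name but is now assigned to complex IV.

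RNA had been sequenced from pig pancreas, where 50 mg were cut from the duodenal lobe when the organ was retrieved, and from purified islets after 7 days of free-floating culture. The study asks which genes differ between animals of higher and lower islet density, and each sample carries a label of High or Low, for which the sources used here give no measurement. Pancreas libraries numbered 8 for High and 9 for Low, islet libraries also 8 for High and 9 for Low, and 1 further islet library, from animal 12AS51, had no density label. The labels name no strain, sex, age or treatment, and 16 animals were counted in both tissues. Nothing beyond the animal code says how replicates were made, so p-values measure the spread between these samples.

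The islet libraries held 3237653 to 6702589 gene counts. Of the pancreas libraries, 10 held 1855075 to 3922006 and 7 held 265000 to 536014. All 7 of these shallow libraries were labelled Low (replicates 1 and 3 to 8), and 6 of them come from animals whose code begins with 14. The oxidative phosphorylation genes drew 110 to 213 reads in each shallow library, 2486 to 6208 in each of the other 10 pancreas libraries and 3544 to 11151 in each labelled islet library. The islet library of 12AS51 stood apart, with 1206 such reads and 87.8% of its counts in its 10 most abundant genes. The tissue labels held against markers: all 15 tested pan-endocrine genes were higher in islets, and all 14 tested acinar genes were lower. The summed level of 15 acinar genes was 12.1 to 558 CPM (a gene's counts per 1000000 gene counts of its library) in labelled islets, 12485 to 27884 CPM in the shallow pancreas libraries and 98008 to 251692 CPM in the other pancreas libraries.

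The summed level of the 70 genes per library was examined first, by complex. In labelled islets it was 2056 ± 408 CPM (SD, n = 17), with a lowest value of 1095, a median of 2026 and a highest of 2685 CPM. In the 10 deeper pancreas libraries it was 1223 ± 214 CPM (SD, n = 10), from 977 to 1583 CPM, and in the 7 shallow ones 502 ± 137 CPM (SD, n = 7), from 319 to 685 CPM. Islets and the deeper pancreas libraries overlapped, and the shallow libraries lay below all other libraries except the islets of 12AS51, which were at 180 CPM. By CPM, the sum was higher in islets than in pancreas in 15 of 16 animals, 12AS51 being the exception. Only 8 of the 16 had a labelled islet library and a deeper pancreas library. How many of all genes were higher in as many animals was not counted.

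The size of that difference depended on the scale. A CPM is a share of all reads of a library and so depends on what else the library holds. The tests therefore use library sizes scaled by TMM (trimmed mean of M-values), whose factors set the bulk of genes level between libraries. By CPM, the sum was 2.11 times as high in islets as in pancreas over all libraries, and 1.68 times without the shallow libraries and 12AS51. On TMM-scaled library sizes the same ratios were 1.45 and 1.14. Without those libraries, the scaled ratio was 1.28 for complex IV, 1.19 for complex III, 1.17 for complex V and 1.14 for complex I. It was 0.84 for complex II, 0.68 for the assembly factors and 0.55 for the NDUFA4 family. On scaled sizes the sum in the islets of 12AS51 was 1460 CPM, within the 1181 to 2127 CPM of labelled islets. Animals were not counted on that scale. In bulk samples such as these, fewer cells of a type and less RNA per cell cannot be told apart.

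**Figure D1:**
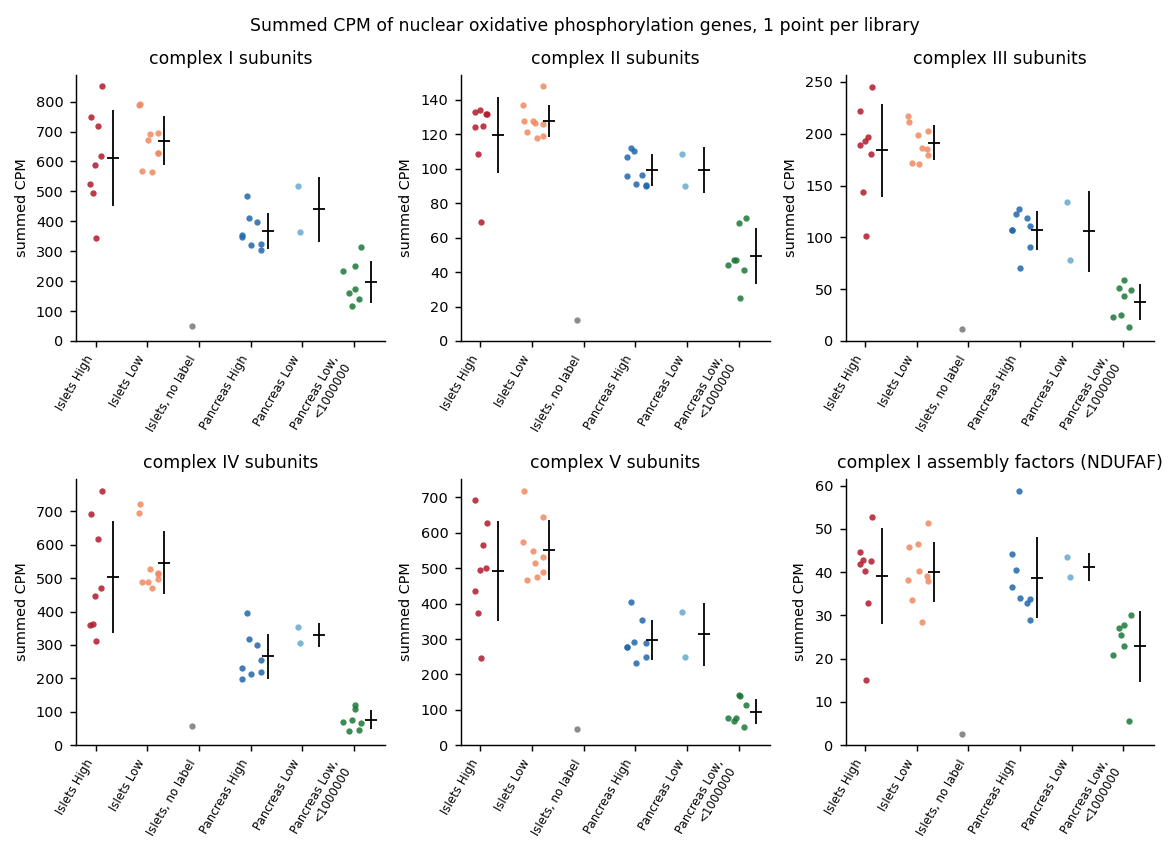
Summed CPM (linear axis from 0) of the genes of each complex and of the complex I assembly factors, 1 point per library, by tissue and density label, with the mean and SD beside each group of more than 1 library. Labelled islets sit above the deeper pancreas libraries for complexes I, III, IV and V with some overlap, and the 7 shallow Low pancreas libraries sit lowest among pancreas for complexes II to V.

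The make-up of the set does not depend on that scaling, because each share is taken within a library. Complex I held 31.3% ± 0.9 (SD, n = 17) of the reads in labelled islets and 31.2% ± 1.3 (SD, n = 10) in the deeper pancreas libraries. Complex V held 25.4% and 24.6%, complex III 9.21% and 8.74%, and complex IV 25.5% and 22.7%, with overlapping ranges. The share of complex II was smaller in islets, 4.87% to 7.37% against 7.01% to 9.84%. The share of the assembly factors was 1.38% to 2.77% against 2.49% to 4.38%. The share of NDUFA4 with NDUFA4L2 was 0.44% to 1.01% in islets and 1.16% to 1.61% in the deeper pancreas libraries, and these ranges did not overlap.

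Islets were then compared with pancreas gene by gene, over 18 islet and 17 pancreas libraries. Of the 70 genes, 64 passed the filter on low counts. In islets, 22 of the 64 were higher (34.4%) and 8 were lower (12.5%), with a median log2 fold change of 0.23. Of all 12339 genes tested, 31.1% were higher and 31.5% lower, with a median of −0.01, so the share that rose was near that of genes at large and the share that fell was smaller. Without the 7 shallow libraries, 19 were higher and 15 lower, with a median of 0.13, beside 34.1% higher and 33% lower of 12607 genes. Of the calls over all libraries, 17 rises and 7 falls remained. CPM ranges of all islet and all pancreas libraries overlapped for every one of the 64 genes, while 0.259% of all tested genes lay apart with islets higher and 2.29% with islets lower. Calls use edgeR's quasi-likelihood test with Benjamini-Hochberg adjustment over all genes tested, two-sided, as for each adjusted p below, and a fold change with its SE is on the log2 scale.

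**Figure D2:**
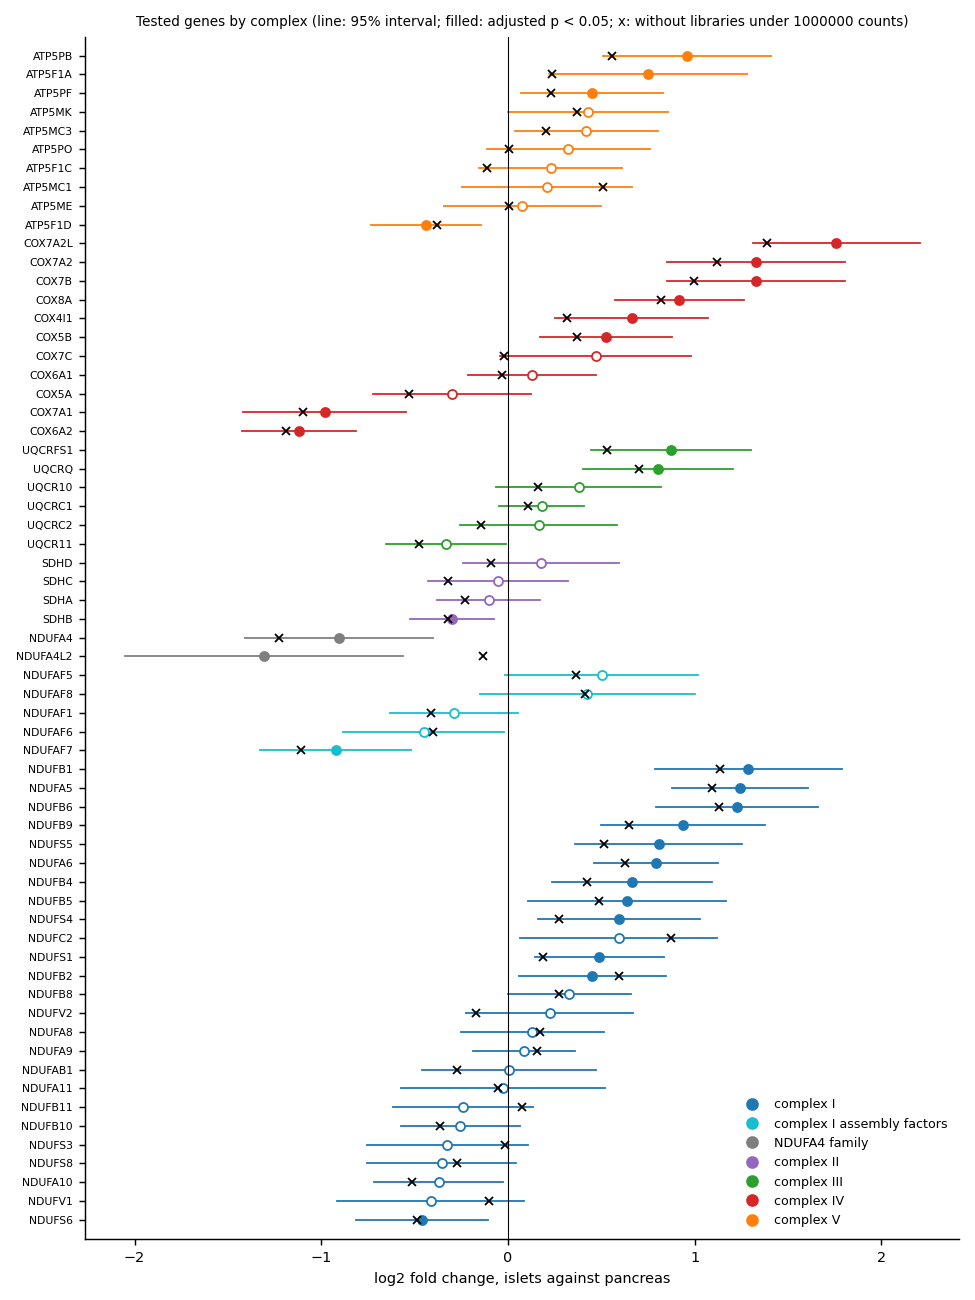
Log2 fold change of the tested genes given here between islets and pancreas, grouped by complex, with 95% intervals; filled points passed the adjusted p of 0.05, and crosses give the fit without the 7 shallow libraries. COX7A2L is highest at 1.76, NDUFA4L2 is lowest at −1.31, and its cross lies near 0 at −0.13.

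In complex I, which oxidises NADH, 11 of 26 tested subunits were higher in islets (42.3%) and 1 was lower (3.85%). Of all genes tested, 31.1% were higher and 31.5% lower. Accessory subunits, which surround the catalytic core, made up 20 of the 26 tested. Of these, 10 were higher and 1 lower, and of 6 tested core subunits 1 was higher. This grouping by role was made after the values were seen, and the groups were not compared by a test. Without the shallow libraries 9 accessory subunits were higher and 3 lower, and 0 and 1 of the core subunits. NDUFB1, a small accessory subunit of the membrane arm, rose most. Its level was 3.71 to 19.8 CPM in labelled islets (median 11.4), 1.79 to 7.43 CPM in the deeper pancreas libraries (median 3.01) and 0 to 3.77 CPM in the shallow ones. By CPM the islets were higher in 14 of 16 animals, and in 7 of the 8 with a labelled islet and a deeper pancreas library. The fold change was 1.29 (SE 0.26, adjusted p = 3.31e-05). NDUFB9, another membrane-arm subunit, rose by 0.94 (SE 0.22, adjusted p = 0.000402). NDUFA5, NDUFB6, NDUFA6 and NDUFS5, all accessory subunits, rose by 1.24, 1.22, 0.79 and 0.81.

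NDUFS1, the iron-sulfur core subunit that drew the most complex I reads, lay at 31.2 to 89.1 CPM in labelled islets (median 71.3) and at 25.3 to 76.4 CPM in the deeper pancreas libraries (median 37.6). Its rise of 0.49 (SE 0.18, adjusted p = 0.0152) fell to 0.19 without the shallow libraries (adjusted p = 0.21). NDUFS6, an accessory subunit of the NADH-binding part, changed by −0.46 (SE 0.18, adjusted p = 0.0249), and was called lower. That call was lost in the fit that blocks on the animal (−0.50, adjusted p = 0.0736) and without Pancreas High replicate 5 (−0.41). NDUFB1 overlaps CPSF2 in the RefSeq annotation, and the strand setting of the counts is not given, so reads of such overlapping genes cannot be told apart.

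Of the 5 tested assembly factors, which help to build complex I without being part of it, 1 was lower and none higher. Of all genes tested, 31.5% were lower and 31.1% higher. NDUFAF7, a methyltransferase of the mitochondrial matrix, lay at 2.78 to 12.2 CPM in labelled islets (median 10.6) and at 9.51 to 22.6 CPM in the deeper pancreas libraries (median 14.7). It fell by 0.92 (SE 0.21, adjusted p = 0.000161), and by 1.11 without the shallow libraries. NDUFAF1, an assembly factor of the membrane arm, changed by −0.29 (SE 0.18, adjusted p = 0.15), and fell by 0.41 without the shallow libraries (adjusted p = 0.00957). In RefSeq, NDUFAF7 overlaps PRKD3 and NDUFAF1 overlaps NUSAP1.

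Complex II, succinate dehydrogenase, links the chain to the tricarboxylic acid cycle and has only nuclear subunits. Of its 4 genes only SDHB, the iron-sulfur subunit, was called, and the call was small. Its CPM was 18.5 to 32.8 in labelled islets (median 24.1) and 17.8 to 23.9 in the deeper pancreas libraries (median 19.4), so its CPM was higher in islets while its scaled fold change was −0.30 (SE 0.12, adjusted p = 0.023). That sign turned, to 0.07 (adjusted p = 0.698), when no filter on low counts was applied. SDHA, the flavoprotein, changed by −0.10 (SE 0.14), and SDHC and SDHD, the membrane anchors, by −0.05 (SE 0.19) and 0.18 (SE 0.21), none of them past the threshold. Without the shallow libraries SDHA (−0.23), SDHB (−0.32) and SDHC (−0.32) were all called lower, with adjusted p of 0.042, 0.0135 and 0.0494.

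In complex III, the cytochrome bc1 complex, 2 of 6 genes were higher in islets (33.3%) and none was lower. The share that rose was near the 31.1% of all genes tested, of which 31.5% were lower. UQCRFS1, the Rieske iron-sulfur protein, lay at 49.1 to 122 CPM in labelled islets (median 92.6), at 24.4 to 63.1 CPM in the deeper pancreas libraries (median 41.1) and at 0 to 22.9 CPM in the shallow ones. It rose by 0.87 (SE 0.22, adjusted p = 0.000665), and by 0.53 without the shallow libraries (adjusted p = 0.000792). UQCRQ, a small subunit, rose by 0.81. UQCR10, another small subunit, changed by 0.38 (SE 0.23, adjusted p = 0.143). UQCR11, also a small subunit, changed by −0.33 (SE 0.16, adjusted p = 0.075), and without the shallow libraries it was called lower (−0.48, SE 0.14, adjusted p = 0.00372).

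Complex IV, cytochrome c oxidase, had 6 of 11 tested genes higher in islets (54.5%) and 2 lower (18.2%), beside 31.1% and 31.5% of all genes. COX7A2L, a COX7A homolog that ties complexes III and IV into supercomplexes, rose most of all the genes studied. It lay at 62.1 to 206 CPM in labelled islets (median 120), at 21.8 to 63.1 CPM in the deeper pancreas libraries (median 29.4) and at 0 to 13.1 CPM in the shallow ones. Only 1 of the 10 deeper libraries, Low replicate 9, reached into the islet range. The fold change was 1.76 (SE 0.23, adjusted p = 1.15e-08), and 1.38 without the shallow libraries (adjusted p = 3.56e-10). By CPM, islets were higher in 15 of 16 animals, and in all 8 with a labelled islet and a deeper pancreas library. COX7A2, the general form of the COX7A subunit, was at 9.57 to 47.8 CPM in labelled islets (median 21.1) and at 3.10 to 10.1 CPM in the deeper pancreas libraries (median 7.08), and it rose by 1.33 (SE 0.24, adjusted p = 9.10e-06).

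COX8A, a small subunit found in most tissues, was 11.1 to 23.5 CPM in labelled islets and 4.13 to 8.49 CPM in the deeper pancreas libraries. These ranges did not overlap, and how many of all genes lie apart between these sets was not counted. COX8A rose by 0.92 (SE 0.18, adjusted p = 1.80e-05). COX4I1, a regulatory subunit, rose by 0.66 (SE 0.21, adjusted p = 0.00595). COX7B, needed for assembly of the complex, rose by 1.33 and COX5B by 0.53. COX7C, the small subunit with the most complex IV reads, changed by 0.47 (SE 0.26, adjusted p = 0.116) and was called in the fit that blocks on the animal (0.83, adjusted p = 0.0279). COX5A changed by −0.30 (SE 0.22, adjusted p = 0.23), and fell by 0.53 without the shallow libraries (adjusted p = 0.00627).

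**Figure D3:**
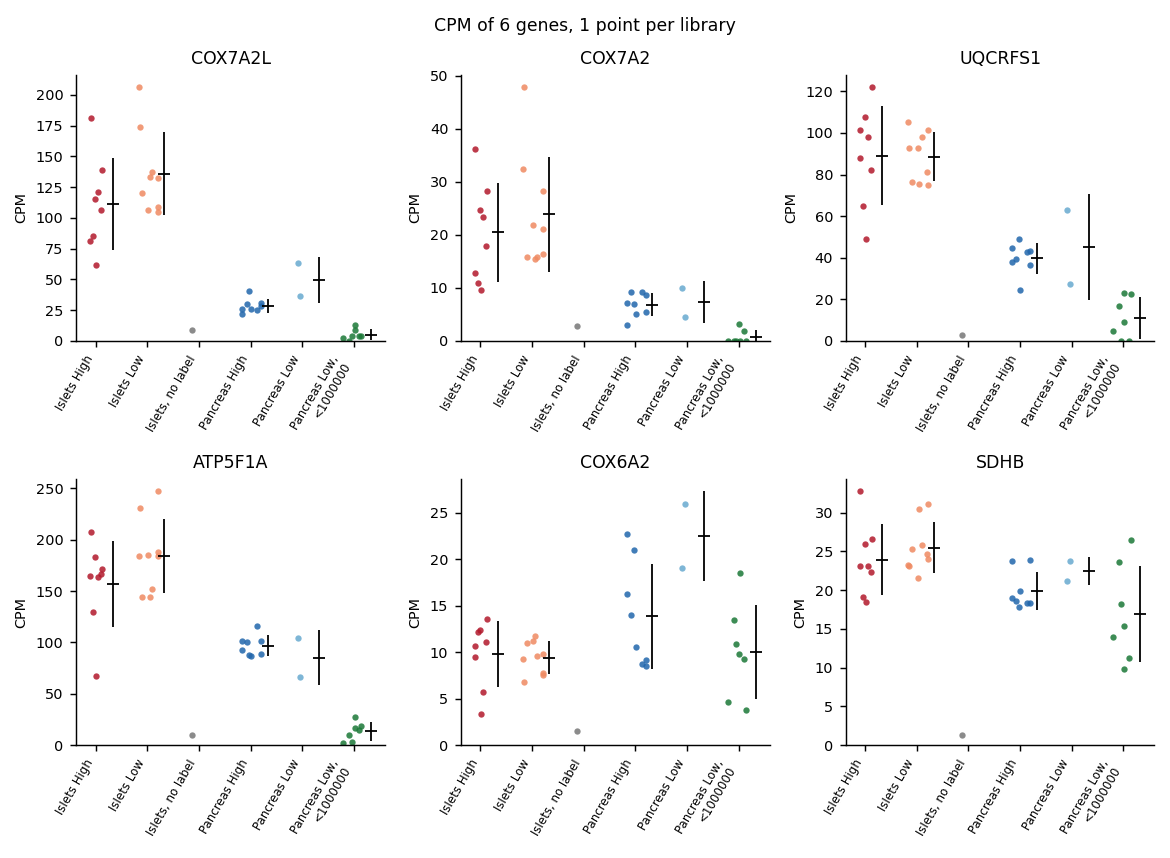
CPM (linear axis from 0) of 6 genes, 1 point per library, with the mean and SD beside each group of more than 1 library. COX7A2L, COX7A2 and UQCRFS1 stand high in islets, COX6A2 is higher in most deeper pancreas libraries, and SDHB differs little in CPM between tissues.

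The 2 genes of complex IV that fell are the forms known from heart and skeletal muscle. COX6A2 lay at 3.40 to 13.6 CPM in labelled islets (median 9.87), at 8.56 to 26 CPM in the deeper pancreas libraries (median 15.1) and at 3.77 to 18.5 CPM in the shallow ones. It fell by 1.12 (SE 0.16, adjusted p = 6.08e-08). COX7A1 lay at 3.69 to 8.80 CPM in labelled islets (median 5.05) and at 4.81 to 13.3 CPM in the deeper pancreas libraries (median 8.23), and it fell by 0.98 (SE 0.22, adjusted p = 0.000205). Both falls passed the threshold in all 11 other settings. Their partners differed: COX6A1 changed by 0.13 (SE 0.17, adjusted p = 0.542) and COX7A2 rose.

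Within each pair, the balance was compared by reads alone, which needs no scaling between libraries. COX7A1 made up 10.3% to 35.0% of COX7A1 and COX7A2 reads in the 17 labelled islet libraries (median 21.7%) and 43.6% to 66.7% in the 10 deeper pancreas libraries (median 54.8%). These ranges did not overlap, with 43 to 228 reads of the pair per islet library and 24 to 83 per pancreas library. The 7 shallow libraries together held 13 reads of the pair, 11 of them from COX7A1. COX6A2 made up 14.5% to 43.8% of COX6A1 and COX6A2 reads in islets (median 23.9%) and 25.2% to 55.8% in the deeper pancreas libraries (median 42.6%), with overlap. COX4I2, the hypoxia-responsive form of COX4, was rare in both: 15 of 5132 reads of its pair in labelled islets and 24 of 1116 in the deeper pancreas libraries. Genes differ in length, so each share compares libraries and does not give the ratio of transcripts.

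Marker genes of pericytes with smooth muscle and of striated muscle were read beside these muscle forms. Of 9 tested pericyte and smooth muscle genes, 8 were lower in islets and none higher, and without the shallow libraries 7 were lower and 1 higher. The summed level of the 13 genes of that list was 58.0 to 143 CPM in labelled islets and 99.8 to 503 CPM in the deeper pancreas libraries. The summed level of 7 striated muscle genes was 5.31 to 120 CPM in labelled islets and 1.53 to 36.1 CPM in the deeper pancreas libraries. The only striated muscle gene tested, ACTA1, was higher in islets (1.82, SE 0.66, adjusted p = 0.0158). The part of these cells in the COX6A2 and COX7A1 results was not tested.

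**Figure D4:**
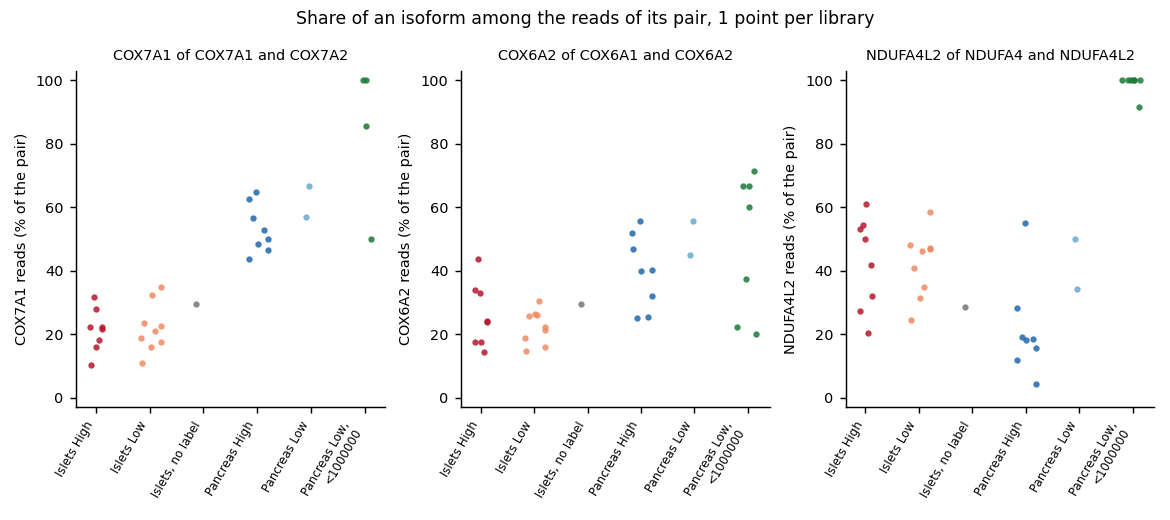
Reads of COX7A1, COX6A2 and NDUFA4L2 as a percentage of the reads of their pair, 1 point per library that has a read of the pair. The COX7A1 share is at most 35.0% in labelled islets and at least 43.6% in the deeper pancreas libraries, and the NDUFA4L2 share is at 91.7% to 100% in the shallow libraries.

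NDUFA4 and NDUFA4L2 were both lower in islets, but on different footings. NDUFA4 lay at 2.78 to 11.7 CPM in labelled islets (median 7.93), at 9.02 to 18.4 CPM in the deeper pancreas libraries (median 11.7), and at 0 in 6 of the 7 shallow ones. It changed by −0.90 (SE 0.26, adjusted p = 0.0023), by −1.23 without the shallow libraries (adjusted p = 2.12e-07), and by −0.61 in the fit that blocks on the animal (adjusted p = 0.201). NDUFA4L2, its hypoxia-inducible paralog, showed the opposite pattern within pancreas. It lay at 12.3 to 32.7 CPM in the shallow libraries, from 4 to 11 reads each, and at 0.56 to 11.9 CPM in the others. These ranges did not overlap, but their edges lie close together, and the floor in the shallow libraries is 5.60 to 11.3 CPM. How many of all genes lie apart between these libraries was not counted. The fold change of NDUFA4L2 between tissues was −1.31 (SE 0.38, adjusted p = 0.00295) and −0.13 without the shallow libraries (adjusted p = 0.65). In the shallow libraries together, 55 of the 56 reads of this pair were NDUFA4L2. SHMT2 and STAC3 lie within 2 kb of NDUFA4L2 in RefSeq.

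In complex V, 3 of 10 genes were higher in islets (30%, near the 31.1% of all genes tested) and 1 was lower (10%, beside 31.5%). ATP5F1A, the alpha subunit of the catalytic F1 head, lay at 67.3 to 247 CPM in labelled islets (median 172), at 66.7 to 116 CPM in the deeper pancreas libraries (median 97.0) and at 2.32 to 27.8 CPM in the shallow ones. It rose by 0.75 (SE 0.27, adjusted p = 0.0149), and changed by 0.23 without the shallow libraries (adjusted p = 0.112). ATP5PB, the b subunit of the peripheral stalk, rose by 0.96 (SE 0.23, adjusted p = 0.000412), and by 0.56 without them (adjusted p = 0.00153). ATP5F1D, the delta subunit of the central stalk, changed by −0.44 (SE 0.15, adjusted p = 0.0104). ATP5MC1 and ATP5MC3, which encode the same mature c subunit of the proton-driven ring, changed by 0.21 (SE 0.23, adjusted p = 0.449) and 0.42 (SE 0.20, adjusted p = 0.0592). ATP5MC1 was called higher without the shallow libraries (0.51, SE 0.20, adjusted p = 0.0235). ATP5MC1 held 23.9% to 47.2% of the reads of this pair in labelled islets and 16.7% to 44.8% in the deeper pancreas libraries.

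The calls that passed in all 11 other settings of scaling, filter, tool, block and library selection were 13 rises and 3 falls. The rises were ATP5PB, COX7A2, COX7A2L, COX7B, COX8A, NDUFA5, NDUFA6, NDUFB1, NDUFB6, NDUFB9, NDUFS5, UQCRFS1 and UQCRQ. Among them UQCRFS1 alone holds a redox centre of the electron path, ATP5PB belongs to the stalk of ATP synthase, and COX7A2L ties complexes together. The remaining rises are accessory subunits of complexes I, III and IV. Accessory subunits also made up 20 of the 26 tested genes of complex I. The falls were COX6A2, COX7A1 and NDUFAF7.

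Libraries of High and Low density were then compared within each tissue, pancreas first. Here 53 of the 70 genes passed the filter, and 19 were higher in High pancreas and 2 lower, with a median of 0.67. Of all 10634 genes tested, 18.8% were higher and 21.5% lower, with a median of 0.07. Without the shallow libraries, with 8 High and 2 Low libraries, no gene passed the threshold, here or among all 13217 genes tested (0% higher, 0% lower), and 10 of 64 of these genes had an unadjusted p under 0.05, beside 9.25% of all genes. The median over the same 53 genes was then 0.34, beside −0.01 over all 13217 genes, and 45 of the 53 had a positive value. These 53 had passed the filter with the shallow libraries included, and both fits share the 8 High libraries. The signs are therefore no separate check, and the share of positive values over all genes was not counted. The libraries under 1000000 counts were all Low, as were all pancreas libraries of animals whose code begins with 14, so no comparison of High with Low could be made within either set. The 2 deeper Low libraries were also unlike each other in endocrine markers. Their summed levels were 395 and 6672 CPM for pan-endocrine genes, and 353 and 8159 CPM for beta cell genes. In High pancreas these sums were 336 to 1287 CPM and 309 to 1802 CPM.

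CPM ranges of all High and all Low libraries overlapped for each of the 53 genes, where 0.226% of all tested genes lay apart with High higher and 1.09% with High lower. The rises spanned the complexes, with 6 of 20 tested genes in complex I, 2 of 4 in complex II, 3 of 5 in complex III, 3 of 10 in complex IV, 4 of 9 in complex V and NDUFA4. UQCR10 rose most. It lay at 5.51 to 15.8 CPM in High pancreas (median 8.91) and at 0 to 6.90 CPM in Low pancreas (median 2.24), with a fold change of 1.83 (SE 0.46, adjusted p = 0.00326). ATP5F1A lay at 86.5 to 116 CPM in High pancreas (median 97.0) and at 2.32 to 104 CPM in Low pancreas (median 16.4). The 2 Low libraries outside the shallow set, at 66.7 and 104 CPM, lay near or within the High range. Its fold change was 1.71 (SE 0.36, adjusted p = 0.000885) over all libraries and 0.70 without the shallow ones (adjusted p = 0.377). NDUFA4 rose by 1.53, COX5A by 1.38, NDUFB9 by 1.37 and NDUFV2, a core subunit of the NADH-binding part, by 1.28. SDHD (1.32) and SDHC (1.01) were called, and SDHA (0.48, SE 0.26) and SDHB (0.14, SE 0.23) were not. The muscle forms were not called, with COX6A2 at −0.03 (SE 0.29) and COX7A1 at 0.25 (SE 0.44), and COX7A2L, at 0.71 (SE 0.37, adjusted p = 0.124), did not pass. For none of the 53 genes did the 95% interval lie within a log2 change of 0.5 in either direction.

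The 2 genes that went the other way were NDUFA4L2 and NDUFB11, an accessory subunit of the membrane arm. NDUFA4L2 lay at 0.56 to 11.9 CPM in High pancreas (median 2.81) and at 6.26 to 32.7 CPM in Low pancreas (median 22.6), and changed by −2.56 (SE 0.49, adjusted p = 0.000402), or by −0.68 without the shallow libraries (adjusted p = 0.77). NDUFB11 changed by −0.94 (SE 0.32, adjusted p = 0.0235), and that call was lost without any of Pancreas High replicates 4 and 8 and Low replicates 6 and 7 (values from −0.77 to −0.83). It overlaps RBM10 in RefSeq.

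The acinar level moved with these results. Of 15 tested acinar genes 14 were higher in High pancreas. Markers of other cells moved too, beside 18.8% higher and 21.5% lower of all genes tested. Of 10 tested duct genes 7 were higher in High pancreas and none lower. Of 13 pan-endocrine genes 6 were lower and 1, PTPRN2, was higher (1.29, SE 0.29). Of 9 pericyte and smooth muscle genes 4 were lower, as were 4 of 7 myeloid genes, and none was higher. Endothelial genes went both ways, with 3 higher and 1 lower of 8, and so did adipocyte genes, with 1 and 1 of 2. Of 4 alpha cell, 6 beta cell and 9 fibroblast genes, 1 each was lower. The single striated muscle and erythroid genes tested and both Schwann and neural genes tested were also lower. Summed levels of these last lists, and of lymphocyte genes, lay apart between the shallow and the other pancreas libraries. They were 44.8 to 105 against 1.53 to 36.1 CPM for striated muscle, 24.3 to 60.4 against 0.56 to 17.3 CPM for erythroid, 28 to 98.3 against 5.39 to 26 CPM for Schwann and neural, and 21.8 to 83.3 against 2.22 to 16.7 CPM for lymphocyte genes. None of the 6 lymphocyte genes passed the filter here. In the shallow libraries 3 counts of a gene make 5.60 to 11.3 CPM, so these sums rest on few reads. How many of all genes lie apart between these libraries was not counted. The part of these cells in the results was not tested. With the mean log2 acinar level as a covariate, or with log2 of the library total, none of the 53 genes passed the threshold, but neither did any of all 10634 genes tested. Of the 53, 3 and 1 then had an unadjusted p under 0.05. Depth, cell markers and the density label cannot be told apart in these libraries.

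**Figure D5:**
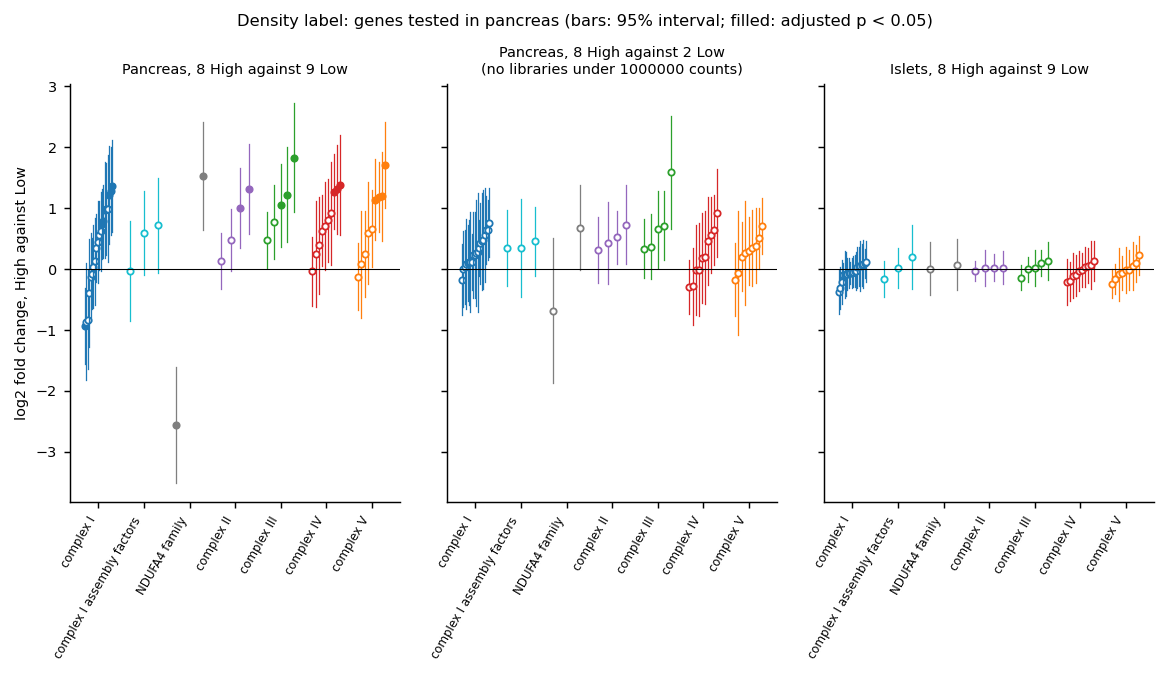
Log2 fold change between High and Low libraries for the 53 genes tested in pancreas, by complex, with 95% intervals: all pancreas libraries, the pancreas libraries of at least 1000000 counts, and islets. Filled points passed the adjusted p of 0.05, and they occur only in the panel of all pancreas libraries.

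In islets, where the libraries are deep in both groups, none of the 64 tested genes differed between High and Low. Fold changes ran from −0.38 to 0.43, with a median of −0.02, and the lowest adjusted p was 0.999. None had an unadjusted p under 0.05, and of all 12070 genes tested 0% passed the threshold and 2.13% had such a p. DESeq2 and limma-voom called none either, with 1 gene each at an unadjusted p under 0.05. The 95% intervals lay within a log2 change of 1 in either direction for all 64 genes, and within 0.5 for 49. Complex sums overlapped closely, with all genes together at 1961 ± 530 CPM (SD, n = 8) for High islets and at 2140 ± 265 CPM (SD, n = 9) for Low islets. COX7A2L, for instance, was 62.1 to 182 CPM in High islets and 105 to 206 CPM in Low islets, a fold change of −0.20 (SE 0.16). SDHA was at −0.03 (SE 0.08), COX6A2 at 0.13 (SE 0.16), COX7A1 at −0.21 (SE 0.19) and NDUFA4L2 at 0.01 (SE 0.22).

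The difference between the density effects of the tissues was tested as an interaction. It was called for 29 of 64 genes, 28 with a lower and 1, NDUFA4L2, with a higher High-to-Low difference in islets than in pancreas, beside 17.7% lower and 22.2% higher of 14337 genes. Without the shallow libraries none of 65 was called, beside 0.0592% lower and 0.342% higher of all genes. Of these 65, 13 had an unadjusted p under 0.05, beside 13.8% of all genes.

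The partners of these genes were read from lists of mitochondrial genes. Counts of all these lists stand beside 31.1% higher and 31.5% lower of all genes tested between tissues. Without the shallow libraries those shares were 34.1% and 33%. Of 13 mitochondrially encoded subunits, 6 were higher in islets and none lower, with a median of 1.14, and 3 were higher without the shallow libraries. ND1, a core subunit of complex I, rose most, by 1.94 (SE 0.53). Labelled islets held 16.2 to 112 reads of these genes for each read of the nuclear set (median 35.9), and the deeper pancreas libraries 22.4 to 75.9 (median 35.4), with full overlap. Of 18 tricarboxylic acid cycle genes, 5 were higher in islets and 2 lower, or 5 and 5 without the shallow libraries. Of 25 other assembly factors of the chain, 7 were higher, led by SDHAF2 at 1.18, which attaches the flavin to SDHA, and 8 were lower, led by FOXRED1 at −1.49, a complex I factor. These counts of assembly factors were the same without the shallow libraries. Of 57 mitochondrial ribosome genes 6 were higher and 12 lower, against 9 and 15 of 60 without the shallow libraries. Of 16 import and folding genes 5 were higher and 2 lower, against 5 and 3.

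Of 7 tested chain parts outside the rule, 4 were higher in islets and 2 lower, or 4 and 3 without the shallow libraries. Among them GPD2 and DHODH moved further than any subunit, and CYCS did not. GPD2, the glycerol-3-phosphate dehydrogenase that feeds cytosolic electrons into the chain, rose by 2.86 in islets (SE 0.21, adjusted p = 2.96e-15). DHODH, which feeds electrons from pyrimidine synthesis, fell by 2.37 (SE 0.23, adjusted p = 9.52e-12). CYCS, cytochrome c itself, rose by 1.45 (SE 0.21, adjusted p = 1.24e-07). Among 18 regulators of mitochondrial biogenesis 1 was higher and 6 were lower, against 1 and 8 without the shallow libraries. TFAM, a transcription factor that also packs mitochondrial DNA, rose by 0.99 (SE 0.24), while PPARGC1A, the coactivator of many nuclear genes of the chain, fell by 2.75 (SE 0.24, adjusted p = 4.35e-13). Without the shallow libraries these values were 2.68 for GPD2, −2.49 for DHODH, 1.32 for CYCS, 0.65 for TFAM and −3.02 for PPARGC1A, all past the threshold.

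The ADP/ATP carriers, which exchange the ATP made by complex V for ADP, were read form by form, and the forms were not compared by a test. SLC25A5 rose by 1.42 in islets (SE 0.20, adjusted p = 7.90e-08). SLC25A4, the form of heart and muscle, changed by −0.36 (SE 0.22, adjusted p = 0.147), and SLC25A6 by −0.36 (SE 0.27, adjusted p = 0.251). Without the shallow libraries SLC25A5 rose by 1.13, SLC25A4 fell by 0.71 (adjusted p = 0.000306) and SLC25A6 fell by 0.89 (adjusted p = 3.70e-06). In all, of 13 tested carriers and channels 4 were higher and 1 lower, against 4 and 5 of 14 without the shallow libraries, and these 3 were singled out after their values were seen. In the 8 genes of the hypoxia list that were tested, 2 were higher in islets, with VEGFA at 1.14, and 3 were lower, with EGLN3 at −3.12. These counts were 3 and 3 without the shallow libraries.

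Of the 6 genes left out of the comparison of tissues, NDUFA2 and NDUFB7 had no read in any of the 35 libraries. Whether reads could be assigned to these rows was not tested, so no level or bound is given for either gene. NDUFA2 overlaps TMCO6 in RefSeq. NDUFAF3 and NDUFAF4, both assembly factors, were at or below 9.28 CPM, and COX4I2 and COX6B2, forms of narrow tissue range, were at or below 12.3 CPM, each from at most 14 reads in a library. Many of these genes have processed copies in the genome, so reads could be split between copies, and their counts are uncertain to that extent.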

How the data were processed

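The values are read counts per gene, not normalised, which the authors deposited as 1 table per tissue. Tools listed in the submitters' processing notes are HISAT2 2.0.2, FastQC, Subread and edgeR, beside the build susScr3, and neither their roles nor a strand setting are stated there. Of 37 samples, 35 matched a column, and 1 pancreas column that matched no sample was not used. Gene identifiers were matched to symbols through a table of gene names, and neighbouring genes come from RefSeq. Sequences and coordinates were not used here.

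CPM were computed from column totals. Tests used edgeR 4.0.16 (R 4.3.3) with TMM scaling, filterByExpr and the robust quasi-likelihood fit, on all genes, two-sided, with Benjamini-Hochberg adjustment and a threshold of 0.05. Tissues were compared over all libraries, and density labels within each tissue. The main tissue and interaction fits left out the pairing of the 16 animals sampled in both tissues. With the animal as block, over 32 libraries, the median of the tissue comparison was 0.41, beside 0.23 in the main fit. Alternatives were 2 other scalings, 2 other filters, DESeq2 1.42.0, limma-voom (limma 3.58.1), covariates, an animal block and selected libraries. The TMM-scaled sums, and the comparison of labelled islets with deeper pancreas libraries, were chosen after seeing the data. The fits were first tested on simulated data with known changes. Of 128 pairs of libraries within groups none was identical, and none agreed within sampling noise (lowest chi-square per degree of freedom 5.58).

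Pairing comes from the animal code in the labels. Deviations from the group mean correlated between the tissues of an animal by −0.41 to 0.23 (median −0.03, above 0.1 in 5 of 16 animals). In 4 animals the density labels of the tissues differed, and 2 islet libraries have a source name that reads Pancreas.

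Genes and lists were chosen with earlier results of these data known. Values were given for all complex II genes, for families with several genes per subunit, for the largest called rise and fall and the most read gene of each complex, and for calls against the majority. Other genes are named where a count is spelled out. Values of 2 genes that this rule covers are not reported here. A count of 0 allows up to 3 counts, which is 0.448 to 0.927 CPM in islets, 5.60 to 11.3 CPM in the shallow pancreas libraries and 0.765 to 1.62 CPM in the others. These floors and the intervals cover counting error or the spread between libraries only.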

Additional observations from a re-analysis of the deposited data

Results flagged for a closer look

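In groups of 8 or 9 libraries, 14 of 160 checks found a highest or lowest library set far from its group, where chance gives about 1 in 20. Pancreas Low replicate 9, which is among the 2 deeper Low libraries, gave 5 of them, being highest for NDUFS1 (76.4 CPM), UQCRFS1 (63.1 CPM), NDUFB9 (22.3 CPM), SDHD (21.2 CPM) and COX7A2 (10.1 CPM). Islets High replicate 6 was lowest for the complex II sum (68.9 CPM), SDHC (10.2 CPM) and NDUFAF7 (2.78 CPM). Pancreas High replicate 5 was highest for COX6A1 (41.6 CPM) and NDUFA4 (18.4 CPM). Single cases were SDHA in Pancreas High replicate 8 (51.3 CPM, highest), NDUFA4L2 in Pancreas High replicate 7 (11.9 CPM, highest), COX7A1 in Islets High replicate 8 (8.15 CPM, highest) and UQCR10 in Islets Low replicate 3 (10.8 CPM, lowest).

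The density difference was not the same in islets and pancreas for 18 of the genes given by name, by edgeR's interaction test over the labelled libraries. The islet minus pancreas value on the log2 scale was −2.0 for ATP5F1A, −1.95 for UQCR10, −1.58 for COX5A, −1.48 for NDUFA4, −1.44 for NDUFV2 and −1.39 for SDHD. It was −1.37 for ATP5PB, −1.36 for COX7C, −1.35 for COX4I1, −1.31 for NDUFB9, −1.28 for COX7A2 and −1.10 for SDHC. It was −1.09 for UQCRFS1, −0.95 for NDUFS1, −0.95 for NDUFAF1, −0.94 for COX6A1 and −0.76 for SDHA, and 2.20 for NDUFA4L2. None passed without the 7 shallow pancreas libraries, which also hold the lowest acinar levels in pancreas.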

How the results depend on the processing

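Between the tissues, 22 genes were higher and 8 lower. Higher calls numbered 37 with no filter on low counts. Lower calls numbered 13 with upper-quartile scaling, which moved the median of all genes from −0.01 to −0.14, and 15 without libraries under 1000000 counts. SDHB turned to 0.073 with no filter. With the animal as replicate block 21 were higher and 6 lower. Leaving out each library gave 19 to 24 higher and 7 to 12 lower.

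For pancreas High against Low, 19 were higher and 2 lower. Higher calls numbered 34 with no filter and 32 with a filter of 1 CPM, and lower calls numbered 1 with each of these and with limma-voom. Both counts were 0 without libraries under 1000000 counts, without animals whose code begins with 14, with the acinar level as covariate and with the library total as covariate. Leaving out each library gave 16 to 24 higher and 1 to 3 lower. With the library total as covariate the sign turned for ATP5PB (−0.028), COX7C (−0.21), NDUFA4 (−0.10), NDUFS1 (−0.37) and NDUFV2 (−0.13), and with the acinar level for NDUFS1 (−0.057) and NDUFV2 (−0.030). The NDUFS1 call was also lost when any of 10 single libraries was left out (0.62 to 0.77). Upper-quartile scaling moved the median of all genes from 0.07 to −0.11.

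For islets High against Low, counts were 0 in all settings and with each library left out. For the interaction, 1 was higher and 28 lower, against 2 and 18 with upper-quartile scaling (median of all genes 0.00 to 0.26), 1 and 26 with the replicate block, and 0 and 0 without libraries under 1000000 counts; libraries were not left out singly there. Where no reason is given, the cause was not tested. Depth limits the shallow libraries, in which these genes drew 110 to 213 reads in all.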
